A study of Mus musculus with 18 samples.

Results

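The miR-183 cluster, which also holds miR-96 and miR-182, is a set of 3 neighbouring microRNA (miRNA) hairpins best known from sensory organs. Its members here were the 4 mature strands mmu-miR-183-5p, mmu-miR-183-3p, mmu-miR-96-5p and mmu-miR-182-5p, written below without the species prefix and chosen by name, and all 4 were listed among the 1841 mature mouse miRNAs of the tables. Small RNAs had been sequenced from brain tissue of male C57BL/6J mice aged 1 month, with 18 libraries in 6 groups and 3 biological replicates in each group. The 4 cerebellum groups were wild type (WT), the Cyrano knockout (CyrKO, which lacks a long noncoding RNA), Cdr1as671, in which a circular RNA has an 18 nt deletion at its miR-671 site, and the double mutant with both changes. The 2 hippocampus groups were WT and CyrKO. Libraries held 8591172 to 15305829 miRNA reads, so that 1 read was worth 0.0653 to 0.116 CPM, the reads of a miRNA scaled to the library's total of miRNA reads and the unit of all levels below. Neither Cyrano nor Cdr1as was measured, but miR-7a-5p, the miRNA that Cyrano directs to degradation, stood at 496 ± 52.9 CPM in WT and at 20000 ± 838 CPM in CyrKO cerebellum, and at 4310 ± 491 and 25200 ± 891 CPM in hippocampus (SD, n = 3 each).

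A miRNA hairpin is cut into a duplex, of which the guide strand enters an Argonaute protein and the other strand, the passenger, is mostly discarded. The guide finds target mRNAs mainly through its seed, bases 2 to 8. The 3 guides of this cluster are processed from 1 shared primary transcript and are abundant in photoreceptors, hair cells of the inner ear and other ciliated sensory cells. Mutations in the seed of miR-96 cause progressive hearing loss in mice and humans, and loss of the cluster in mice disturbs the retina and the inner ear. The pineal gland, a light-related organ of the brain, expresses them too.

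The hairpins lie on the minus strand of chromosome 6 between protein-coding genes, in the mouse build GRCm38 with the GENCODE vM21 annotation, and overlap no other annotated gene. In the order of transcription they are Mir183 at chr6:30169668-30169737, Mir96 at chr6:30169446-30169551 and Mir182 at chr6:30165918-30165992. Only 116 bases separate Mir183 from Mir96, whereas 3453 bases separate Mir96 from Mir182. The nearest annotated neighbours are the long intergenic noncoding RNA Rncr4, which begins 3155 bases away from Mir183 on the plus strand, the transcription factor gene Nrf1, 12459 bases from Mir182, and the ubiquitin-conjugating enzyme gene Ube2h, 41551 bases from Mir183. The strands are shown because the 3 guides are close relatives whose seeds differ at single bases, and capitals mark bases 2 to 8 (RefSeq, GRCm38.p6, 5′ to 3′).
miR-183-5p: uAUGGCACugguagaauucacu
miR-96-5p: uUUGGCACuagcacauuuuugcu
miR-182-5p: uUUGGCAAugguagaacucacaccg
miR-183-3p: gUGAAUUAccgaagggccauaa
Counted from the 5′ end, the seeds of miR-183-5p and miR-96-5p differ by A2U, those of miR-96-5p and miR-182-5p by C8A, and those of miR-183-5p and miR-182-5p by both. Aligned from the 5′ end without gaps, miR-183-5p and miR-182-5p share 18 of 22 bases, miR-183-5p and miR-96-5p 13 of 22, and miR-96-5p and miR-182-5p 12 of 23. Of the 1841 listed miRNAs 1573 had a RefSeq mature sequence, and 0 of the others shared bases 2 to 8 with a member. Bases 2 to 7 were shared only between miR-96-5p and miR-182-5p.

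The Mir183 hairpin gives 2 of the 4 members, its guide from the 5′ arm and its passenger from the 3′ arm, both in capitals in the hairpin below (RefSeq, GRCm38.p6, minus strand, chr6:30169668-30169737).
Mir183: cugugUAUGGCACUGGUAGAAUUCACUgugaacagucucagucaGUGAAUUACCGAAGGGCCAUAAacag
Nearly all reads of this hairpin came from the guide. miR-183-3p had 4 reads over the 12 cerebellum libraries, found in 3 of them (2 reads in CyrKO library 2 and 1 each in WT library 2 and double-mutant library 1), and 1 read over the 6 hippocampus libraries, in CyrKO library 3. The 3p strand thus made up 0.144% of the 2786 cerebellum reads of the hairpin (exact Clopper-Pearson 95% interval 0.0391 to 0.367%, counting error only). The other hairpins were as lopsided. miR-96-3p took 3 of 10929 reads (0.0274%, interval 0.00566 to 0.0802%) and miR-182-3p 4 of 6003 (0.0666%, interval 0.0182 to 0.171%) in cerebellum. In hippocampus both had 0 reads. The upper bound of the exact interval was 2.22% for Mir96 and 3.81% for Mir182, and 3 counts over the reads of the hairpin, the limit that a count of 0 allows, came to 1.83% and 3.16%. miR-183-3p stayed below the low-count filter in every comparison, so it was not tested and no fold change is given for it.

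The guides reached moderate levels in cerebellum and very low levels in hippocampus. In WT cerebellum miR-96-5p stood at 71.1, 94.9 and 66.9 CPM, miR-182-5p at 35.7, 50.6 and 40.9 CPM, and miR-183-5p at 15.5, 21.2 and 17.0 CPM in libraries 1, 2 and 3. Library 2 was the highest of the WT libraries for all 3 guides. Their WT means were 77.6 ± 15.1, 42.4 ± 7.58 and 17.9 ± 2.95 CPM (SD, n = 3), which placed them at ranks 245, 294 and 359 of the 1841 miRNAs. In WT hippocampus miR-96-5p stood at 2.56, 2.97 and 2.26 CPM, miR-182-5p at 1.98, 1.23 and 2.48 CPM, and miR-183-5p at 1.16, 1.02 and 0.971 CPM. Each hippocampus value rests on few reads, 21 to 43 for miR-96-5p, 12 to 23 for miR-182-5p and 7 to 10 for miR-183-5p over the 6 hippocampus libraries, where the ranks in WT were 579, 620 and 704. Read numbers of different miRNAs were not corrected for how well each strand is captured in a library, so the order miR-96-5p, miR-182-5p, miR-183-5p is one of reads. That order held in every library except WT hippocampus library 3, where miR-182-5p was above miR-96-5p.

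**Figure D1:**
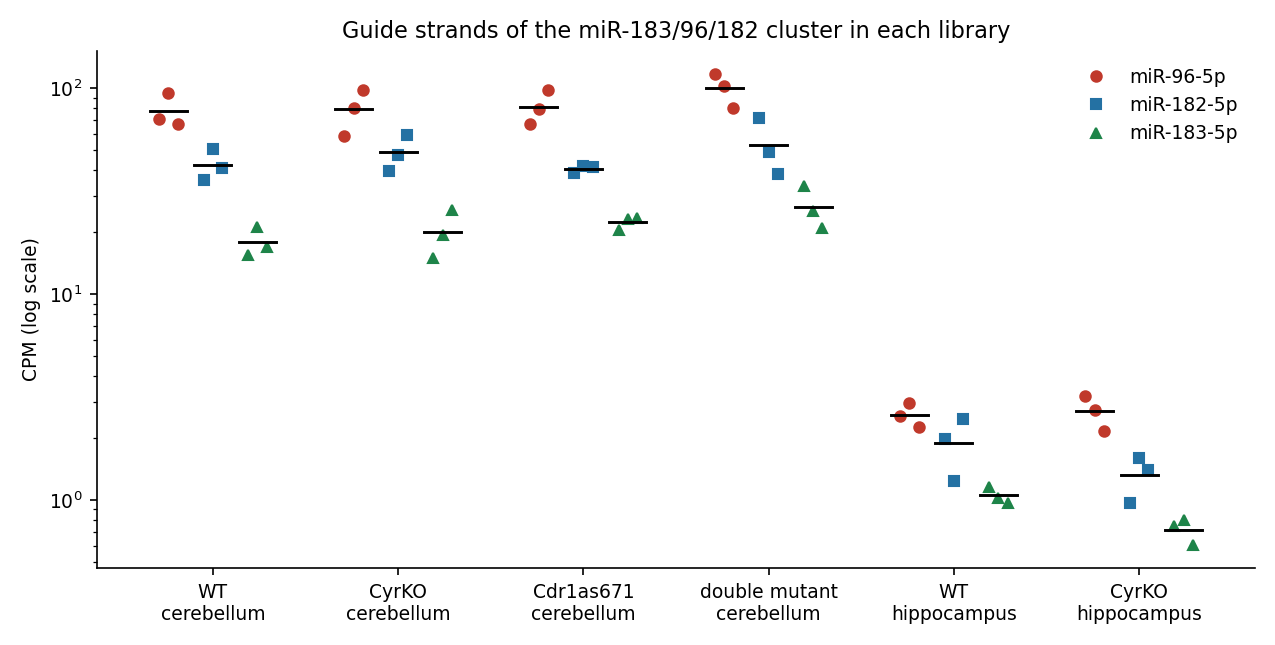
Level of the 3 guide strands in each of the 18 libraries, in CPM on a log axis, by group; points are libraries and bars the group means. The cerebellum libraries reach 14.9 to 33.5 CPM for miR-183-5p and the hippocampus libraries 0.606 to 1.16 CPM, with a similar gap for the other guides.

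Across conditions, the 4 cerebellum groups formed one level and the hippocampus groups another. For miR-183-5p the group means ran from 26.6 ± 6.35 CPM in the double mutant through 22.3 ± 1.53 in Cdr1as671, 19.9 ± 5.29 in CyrKO and 17.9 ± 2.95 in WT cerebellum to 1.05 ± 0.0998 in WT and 0.715 ± 0.0973 in CyrKO hippocampus (SD, n = 3 each). For miR-96-5p they ran from 100 ± 18.3 CPM in the double mutant through 81.5 ± 16 in Cdr1as671, 79.0 ± 19.7 in CyrKO and 77.6 ± 15.1 in WT cerebellum to 2.70 ± 0.519 in CyrKO and 2.60 ± 0.355 in WT hippocampus. For miR-182-5p they ran from 53.1 ± 17.2 CPM in the double mutant through 48.7 ± 10 in CyrKO, 42.4 ± 7.58 in WT and 40.7 ± 1.59 in Cdr1as671 to 1.90 ± 0.63 in WT and 1.31 ± 0.316 in CyrKO hippocampus. Neighbouring groups of the same tissue overlapped in their libraries for each guide, apart from miR-183-5p between the hippocampus groups. In WT cerebellum the spread between libraries was wider than counting alone gives. The coefficient of variation was 19.5% for miR-96-5p, against 3.38% from counting, and 16.4% for miR-183-5p, against 7.04%. In WT hippocampus that of miR-183-5p was 9.48%, below the 32.2% that counting alone gives at such read numbers.

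WT hippocampus was compared with WT cerebellum for the level of the cluster. All 3 guides were far lower in hippocampus. miR-183-5p had 9 or 10 reads in each WT hippocampus library and failed the low-count filter in the separate fit of the hippocampus libraries. It entered the present fit beside the cerebellum libraries, where it is high, so its fall is given as a description. miR-96-5p fell 43.6-fold (log2 change −5.45, SE 0.22, adjusted p = 5.75e-12) and miR-182-5p 32.7-fold (−5.03, SE 0.25, adjusted p = 4.69e-11) in edgeR's quasi-likelihood test with Benjamini-Hochberg adjustment. The described fall of miR-183-5p was 24.7-fold (−4.63, SE 0.23). Many miRNAs differed between the tissues: 70% of the 746 tested passed the threshold of 0.05, and 32.4% passed it with a fall. The guides held ranks 8, 11 and 12 among the 746 changes counted from the largest fall, where the median of all tested was 0.0284 on the log2 scale. Scaling by library totals in place of TMM, the scaling edgeR fits to the bulk of the miRNAs, moved that median to 0.579. The share of higher among the called miRNAs moved from 53.6% to 76.1%. All 3 guides still fell under library totals and under each other scaling tried. The falls in CPM were smaller than under TMM. Mean CPM in WT hippocampus was 3.35% (miR-96-5p), 4.47% (miR-182-5p) and 5.88% (miR-183-5p) of that in WT cerebellum. No library overlapped between the tissues for any guide, which 18% of the tested miRNAs shared as a fall in WT. Over both genotypes, the lowest cerebellum library was 18.4 times the highest hippocampus library for miR-96-5p, 14.4 times for miR-182-5p and 12.8 times for miR-183-5p. Summed over the 3 guides, cerebellum libraries held 113 to 222 CPM and hippocampus libraries 4.16 to 5.72 CPM. In whole tissue, fewer cells that express the cluster and less of it per cell cannot be told apart, nor can tissue be told apart from any difference in how the tissues' libraries were handled.

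The same contrast in CyrKO mice used other libraries and gave falls in the same direction. The estimate was close to that in WT for miR-96-5p and larger for the other 2 guides, where the difference did not pass the test given below. In CyrKO hippocampus against CyrKO cerebellum miR-182-5p fell 55.7-fold (log2 change −5.80, SE 0.26, adjusted p = 1.24e-11 in edgeR) and miR-96-5p 43.3-fold (−5.43, SE 0.22, adjusted p = 5.11e-12). The fall of miR-183-5p, again a description, was 41-fold (−5.36, SE 0.24). There 72.1% of the 746 tested miRNAs passed the threshold and 33.2% passed it with a fall, 18.5% fell without overlap of the libraries, and the guides held ranks 7, 8 and 10 from the largest fall. The CyrKO libraries entered the same fit as the WT libraries and shared its estimate of the spread. Leaving out any 1 library kept miR-96-5p and miR-182-5p past the threshold in both genotypes. With a filter of a mean of at least 10 CPM, miR-183-5p was not tested and the other 2 guides passed.

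**Figure D2:**
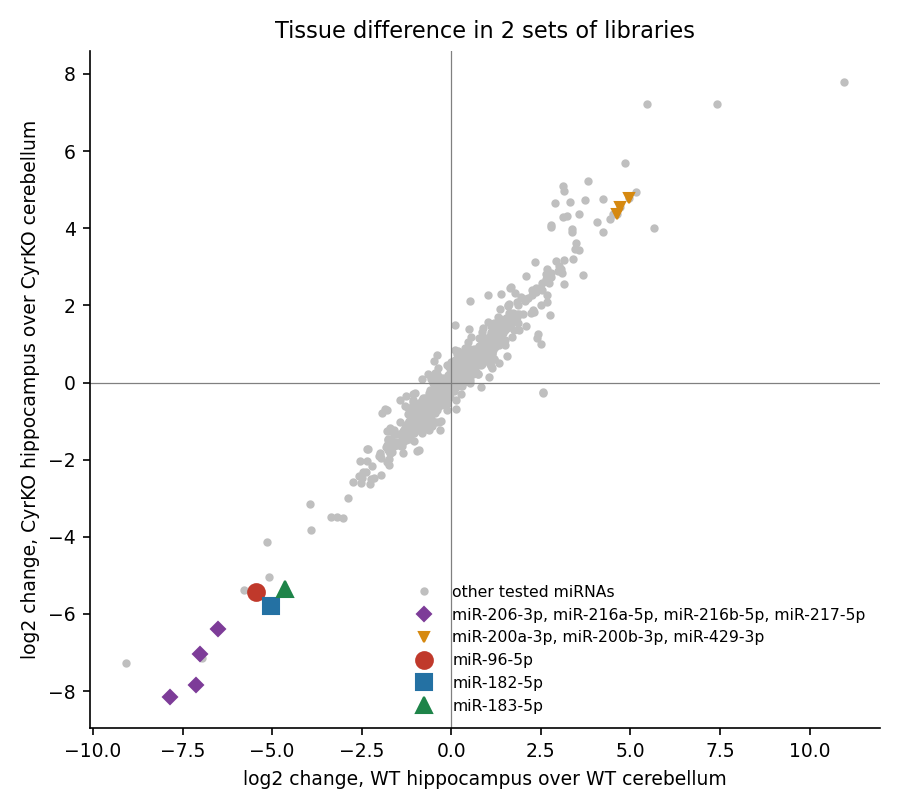
Log2 change of hippocampus over cerebellum (edgeR) in WT mice on the horizontal axis and in CyrKO mice on the vertical axis; each point is 1 of the 746 tested miRNAs, with the 3 guides and 2 sets of other miRNAs marked. The guides lie between −4.63 and −5.80, at the lower left, with miR-206-3p and miR-216a-5p farther out, and miR-200a-3p lies at the upper right.

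Few other miRNAs fell as far between the tissues. In WT the 7 with larger falls were miR-216b-3p, miR-206-3p, miR-217-5p, miR-216b-5p, miR-217-3p, miR-216a-5p and miR-615-3p, and miR-196a-5p and miR-216a-3p stood between miR-96-5p and miR-182-5p. miR-206-3p, best known as a miRNA of skeletal muscle, went from 901 ± 65.2 CPM in WT cerebellum to 5.77 ± 1.15 CPM in WT hippocampus. miR-216a-5p, from a cluster known from pancreatic acinar cells, went from 224 ± 42.9 to 3.65 ± 1.09 CPM. By Pearson's r of log2(CPM + 1) over the 18 libraries, among 440 other miRNAs with a mean of at least 10 CPM, the 5 non-members most like miR-183-5p were miR-217-5p, miR-206-3p, miR-216a-5p, miR-497-3p and miR-216b-5p, at r = 0.989 to 0.986. The same 5 were most like miR-96-5p, led by miR-216a-5p at r = 0.994, and miR-194-5p took the place of miR-497-3p for miR-182-5p, whose closest was miR-216b-5p at r = 0.99. These r describe the gap between the 2 tissues, since the 18 points fall into 2 clusters.

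Other miRNAs known from sensory organs went in both directions. Of the 12 in the list, which takes miRNAs of retina, cochlea, olfactory and taste epithelium, 7 fell and 3 rose in WT hippocampus against WT cerebellum (edgeR), with a median of −0.738, where 32.4% of all 746 tested miRNAs fell and 37.5% rose, with a median of 0.0284. These counts and log2 changes were taken under TMM, whereas CPM levels use library totals, and the scalings differ between the tissues. In CPM, miR-181b-5p in WT hippocampus was at 95.3% of WT cerebellum and miR-9-5p at 90.2%, beside log2 changes of −0.62 and −0.70. The abundant neuronal members fell by less than the cluster did. miR-124-3p went from 210000 ± 19700 to 127000 ± 16900 CPM (log2 change −1.27, SE 0.10) and miR-181a-5p from 26100 ± 2060 to 13000 ± 129 CPM (−1.55, SE 0.08). The miR-200 family, which keeps cells in an epithelial state and is expressed in olfactory epithelium, moved the other way in 3 members. miR-200a-3p stood at 1.63 ± 0.296 CPM in WT cerebellum and 75.4 ± 16.1 CPM in WT hippocampus (log2 change 4.96, SE 0.60), miR-200b-3p at 1.39 ± 0.315 and 50.6 ± 9.00 CPM (4.64, SE 0.58), and miR-429-3p at 1.03 ± 0.218 and 40.4 ± 9.25 CPM (4.71, SE 0.53). The remaining 2 family members fell, miR-200c-3p at −1.66 (SE 0.36) and miR-141-3p at −0.91 (SE 0.38). miR-375-3p, a miRNA of endocrine cells and the pineal gland, rose from 11.1 ± 4.37 to 57.6 ± 22.2 CPM (1.82, SE 0.41).

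Markers of other tissues and cell types that the dissections could hold were read beside the cluster. The lists for the 2 tissues were chosen with results of these data known, so their direction is a description and no independent check of the labels. All 5 hippocampus miRNAs rose, with a median of 2.26 and miR-137-3p at 613 ± 29.0 CPM in WT cerebellum and 10600 ± 295 CPM in WT hippocampus, and all 4 cerebellum miRNAs fell, with a median of −7.08. These and the counts that follow stand beside the 37.5% of all tested miRNAs that rose and the 32.4% that fell, all under TMM scaling. Summed over the list, the 7 epithelial miRNAs held 21.1 to 35.3 CPM in the cerebellum libraries and 94.6 to 294 CPM in hippocampus. The 9 miRNAs of choroid plexus and ciliated cells held 7530 to 11700 CPM in cerebellum and 3700 to 17200 CPM in hippocampus, with 4 that rose and 1 that fell in WT. Their sums in the WT hippocampus libraries were 7430, 16200 and 3700 CPM. Most of the sum was miR-204-5p, at 8790 ± 571 CPM in WT cerebellum and 6630 ± 4580 CPM in WT hippocampus. miR-34c-5p went from 260 ± 116 to 1220 ± 927 CPM and miR-34b-5p from 169 ± 81.6 to 783 ± 623 CPM. All 3 erythroid miRNAs fell, with a median of −3.19, from a sum of 6330 to 32900 CPM in WT cerebellum to 2580 to 3060 CPM in WT hippocampus. None of these markers was at 0 in a whole group. Their part in the fall of the cluster was not tested.

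Within the cerebellum the 3 guides varied together from library to library. Over the 12 cerebellum libraries, log2(CPM + 1) of miR-183-5p and miR-96-5p correlated at Pearson's r = 0.889 (permutation p = 0.0001, adjusted p = 0.0003 over 3 pairs) and Spearman's rho = 0.881 (permutation p = 0.0003, adjusted 0.0009). miR-183-5p and miR-182-5p gave r = 0.799 (permutation p = 0.00218, adjusted 0.00218) and rho = 0.755 (p = 0.00622, adjusted 0.00933), and miR-96-5p and miR-182-5p gave r = 0.781 (permutation p = 0.0019, adjusted 0.00218) and rho = 0.706 (p = 0.0124, adjusted 0.0124). Without the 2 libraries farthest from the median of the first guide, r was 0.782, 0.638 and 0.701. After the group means were taken out, the deviations still correlated, at r = 0.899, 0.966 and 0.815 in the same order. Among the 440 other miRNAs of at least 10 CPM, the other guides were the closest and second closest to miR-183-5p and to miR-182-5p in cerebellum. For miR-96-5p, miR-183-5p came first, miR-539-3p next at r = 0.85 and then miR-182-5p. All points share the library total, and guides from the same libraries also share depth.

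**Figure D3:**
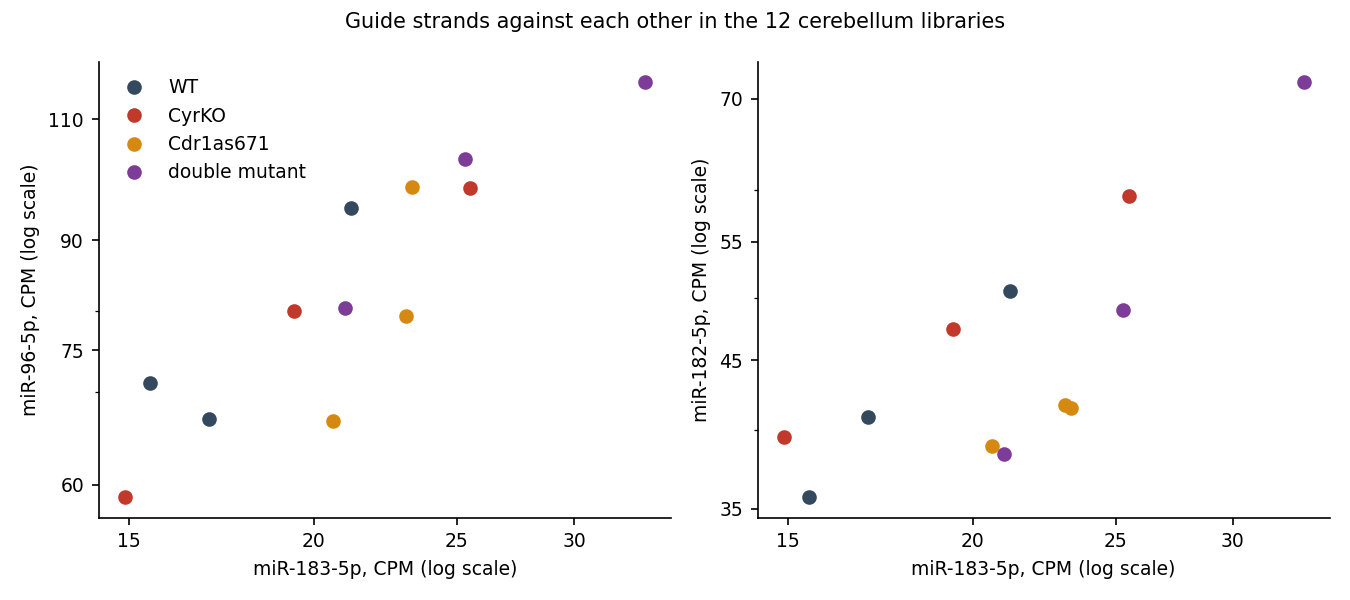
Levels of the guides against each other in the 12 cerebellum libraries, in CPM on log axes, with the genotypes marked. The points rise from lower left to upper right with scatter, and double-mutant library 1, at 33.5 CPM of miR-183-5p, 117 CPM of miR-96-5p and 72.0 CPM of miR-182-5p, is the highest for each.

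miR-96-5p held the largest share of the sum of the guides and miR-183-5p the smallest in each cerebellum group. miR-96-5p made up 56.2 ± 2.35% of the 3 guides in WT cerebellum, miR-182-5p 30.8 ± 1.84% and miR-183-5p 13.0 ± 0.535% (SD, n = 3). Over the other cerebellum groups the mean shares ran from 53.4 to 56.1% for miR-96-5p, from 28.4 to 33.2% for miR-182-5p and from 13.4 to 15.5% for miR-183-5p. By library, the share of miR-183-5p was 12.7 to 13.6% in WT and 13.2 to 13.9% in CyrKO, against 14.3 to 16.3% in Cdr1as671 and 14.3 to 15.1% in the double mutant. The libraries with and without the Cdr1as deletion did not overlap in this share, which was not tested by itself and uses the same counts as the ratio of miR-182-5p to miR-183-5p below. No background was computed for the share. In CPM, 12.9% of 665 tested miRNAs were higher without overlap in Cdr1as671 than in WT, and 4.83% of 662 in the double mutant. In either direction, 25% and 26.6% did not overlap. These percentages compare each mutant with WT alone, without the CyrKO libraries. In WT hippocampus the shares were 47.1 ± 8.83%, 33.9 ± 9.96% and 19.0 ± 1.79%, with the wide SD of small read numbers.

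Loss of Cyrano was not followed by a detected change of the cluster in cerebellum. In the 3 CyrKO libraries miR-96-5p stood at 58.8, 80.0 and 98.2 CPM, miR-182-5p at 39.5, 47.4 and 59.4 CPM and miR-183-5p at 14.9, 19.4 and 25.5 CPM. For each guide CyrKO library 1 was within or below the WT range and library 3 above it. The log2 changes against WT were 0.03 (SE 0.19) for miR-96-5p, 0.21 (SE 0.17) for miR-182-5p and 0.16 (SE 0.19) for miR-183-5p, with an adjusted p of 0.999 each in edgeR. Of the 3 tested guides, 0 passed the threshold in edgeR, in DESeq2 or in the authors' deposited table, and 0 had an unadjusted p under 0.05 in edgeR. The shares of all miRNAs that passed were 0.898% of 668 in edgeR, 0.902% in DESeq2 and 0.443% in the authors' deposited table. The signs for miR-96-5p and miR-183-5p changed when single libraries were left out.

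In hippocampus the comparison of CyrKO with WT rests on few reads. miR-96-5p stood at 3.20, 2.72 and 2.17 CPM in CyrKO and miR-182-5p at 0.968, 1.59 and 1.39 CPM, both overlapping with WT, with log2 changes of 0.04 (SE 0.22, adjusted p = 0.972 in edgeR) and −0.57 (SE 0.34, adjusted p = 0.846). Of the 2 guides tested, 0 passed in edgeR, in DESeq2 or in the authors' deposited table, and 0 had an unadjusted p under 0.05, where 0.57% of 702 tested miRNAs passed in edgeR, 0.57% in DESeq2 and 0.293% in the authors' deposited table. miR-183-5p did not pass the low-count filter. Its 3 CyrKO values, 0.745, 0.794 and 0.606 CPM, all lay below the 3 WT values, as 4.27% of the tested miRNAs did. The pooled counts gave 1.05 CPM in WT (exact Poisson 95% interval 0.703 to 1.51, counting error only) and 0.71 CPM in CyrKO (0.455 to 1.06), which overlap. The log2 change was −0.58 (SE 0.61, adjusted p = 0.99 in DESeq2) in the authors' deposited table and −0.57 (SE 0.42, adjusted p = 0.87) in edgeR without the filter. Neither fit called a difference in miR-183-5p.

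The effect of Cyrano loss on the guides was not shown to differ between the tissues. The change in hippocampus minus that in cerebellum was −0.77 (SE 0.36) for miR-182-5p and −0.73 (SE 0.37) for miR-183-5p on the log2 scale (adjusted p = 0.942 each in edgeR), and 0.01 (SE 0.29, adjusted p = 0.997) for miR-96-5p, whose sign changed with the scaling and the filter. miR-183-5p failed the filter in the separate fit of the hippocampus libraries and is tested here beside the cerebellum libraries, where it is high. Of the 3 guides 0 passed in edgeR and in DESeq2, with miR-182-5p at an unadjusted p under 0.05, against 0.402% of 746 tested miRNAs in edgeR and 0.67% in DESeq2.

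Removing the miR-671 site from Cdr1as left the cluster at levels that overlapped with WT. The Cdr1as671 libraries held 66.7, 79.4 and 98.4 CPM of miR-96-5p, 38.9, 41.7 and 41.5 CPM of miR-182-5p and 20.6, 23.1 and 23.3 CPM of miR-183-5p. For miR-183-5p only WT library 2 reached into the mutant range. The log2 changes were 0.04 (SE 0.17, adjusted p = 0.913 in edgeR), −0.09 (SE 0.13, adjusted p = 0.746) and 0.28 (SE 0.13, adjusted p = 0.254) in the same order. Of the 3 guides 0 passed in edgeR, in DESeq2 or in the authors' deposited table, and 0 had an unadjusted p under 0.05, with 2.26% of 665 tested miRNAs called in edgeR, 5.37% in DESeq2 and 6.25% in the authors' deposited table. Erythroid miRNAs set Cdr1as671 libraries 1 and 2 apart, at a sum of 783 and 603 CPM against 16200 CPM in library 3. Leaving out those 2 libraries leaves library 3 as the only Cdr1as671 library, so only effect sizes are given. The log2 changes against WT were then 0.40 for miR-96-5p, 0.03 for miR-182-5p and 0.44 for miR-183-5p.

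In the double mutant all 3 guides had their highest mean levels, and whether the difference from WT passed the threshold depended on the test. The libraries held 33.5, 25.3 and 21.0 CPM of miR-183-5p, 117, 103 and 80.5 CPM of miR-96-5p, and 72.0, 49.0 and 38.4 CPM of miR-182-5p. Library 1 was the highest and library 3 the lowest for each guide, and library 3 overlapped with WT each time. The estimated change was 1.57-fold for miR-183-5p (log2 0.65, SE 0.17, adjusted p = 0.0788 in edgeR), 1.37-fold for miR-96-5p (0.45, SE 0.15, adjusted p = 0.169) and 1.33-fold for miR-182-5p (0.41, SE 0.23, adjusted p = 0.354). So 0 of the 3 guides passed in edgeR, with miR-183-5p and miR-96-5p at an unadjusted p under 0.05, where 2.57% of the 662 tested miRNAs passed. Both passed in the authors' deposited table, from DESeq2, at adjusted p = 0.0138 for miR-183-5p and 0.0458 for miR-96-5p, where 8.01% of 537 miRNAs passed. DESeq2 run here called the same 2 guides (adjusted p = 0.0086 and 0.0357), with 10.7% of 466 miRNAs called. With the replicate number as a block they passed at adjusted p = 0.0438 and 0.0455 in edgeR, and 5.29% of the tested miRNAs passed with them. Whether the numbers pair these libraries is not known, so the block is only an alternative fit. Without the low-count filter both passed as well, with 4.65% of 1312 miRNAs, and with 18 libraries in 1 fit miR-183-5p alone passed, with 2.91% of 755. miR-182-5p did not pass in any of these fits.

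The call also changed when WT library 2 was left out. Without WT library 2, the highest WT library, miR-183-5p and miR-96-5p passed in edgeR at an adjusted p of 0.026 each, as did 8.55% of 678 miRNAs. Without double-mutant library 1, which was the highest cerebellum library for each guide and had the lowest RNA integrity number of the study, 8.5, the changes were 0.47 (adjusted p = 0.122 in edgeR) for miR-183-5p, 0.34 (adjusted p = 0.234) for miR-96-5p and 0.14 for miR-182-5p. The part of RNA quality in the result was not tested. In the same comparison 0 of the 11 tested miRNAs of the other sensory-organ list passed in edgeR, with a median of −0.19, and the 3 erythroid miRNAs had a median of −0.63 with 0 passed.

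Against the single mutants the guides had positive estimates that did not pass the test. Relative to CyrKO, the double mutant stood at a log2 change of 0.47 (SE 0.19, adjusted p = 0.179 in edgeR) for miR-183-5p, 0.39 (SE 0.21, adjusted p = 0.312) for miR-96-5p and 0.18 (SE 0.21, adjusted p = 0.645) for miR-182-5p. There 0 of 3 guides passed in edgeR and in DESeq2, with miR-183-5p at an unadjusted p under 0.05, against 2.33% of 688 tested miRNAs in edgeR and 7.64% in DESeq2. Relative to Cdr1as671 it stood at 0.49 (SE 0.21, adjusted p = 0.546 in edgeR) for miR-182-5p, 0.40 (SE 0.21, adjusted p = 0.612) for miR-96-5p and 0.36 (SE 0.19, adjusted p = 0.612) for miR-183-5p, with 0 of 3 passed in edgeR and in DESeq2, miR-182-5p at an unadjusted p under 0.05, and 0.727% of 688 called in edgeR and 0.876% in DESeq2. These comparisons and the one with WT share the double-mutant libraries. The interaction, the change of the double mutant beyond the sum of both single changes, was 0.35 (SE 0.30) for miR-96-5p, 0.27 (SE 0.29) for miR-182-5p and 0.19 (SE 0.27) for miR-183-5p, with adjusted p from 0.901 to 0.931 in edgeR. None passed in edgeR or DESeq2 and 0 had an unadjusted p under 0.05, against 0.145% of 688 called in edgeR and 0.584% in DESeq2.

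**Figure D4:**
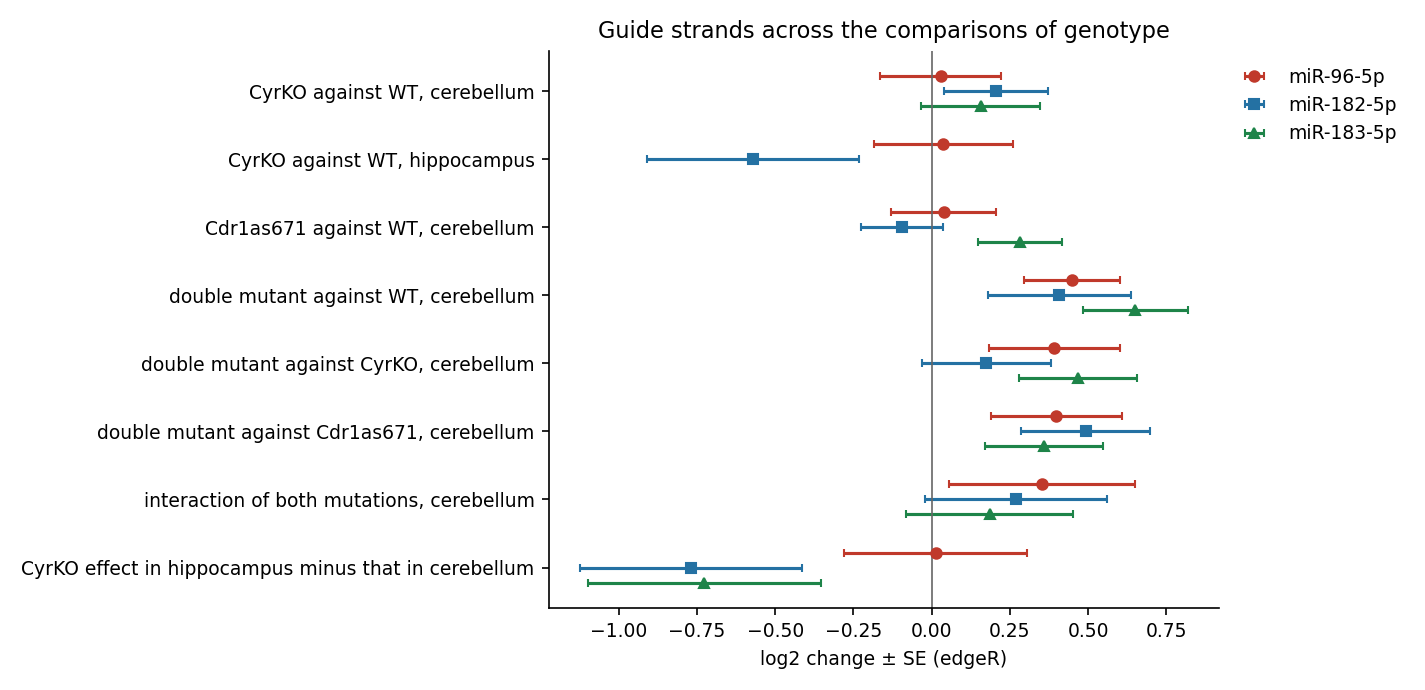
Log2 change of the 3 guides with its SE (edgeR) in each comparison of genotypes, with the interaction and the tissue difference of the CyrKO effect as the last rows. The estimates for the double mutant against WT, 0.41 to 0.65, lie to the right of zero, and miR-183-5p is absent from the hippocampus row because it was not tested there.

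Ratios of guides within a library do not depend on how libraries are scaled. The ratio of miR-182-5p to miR-183-5p, from the last and first hairpins of the cluster, was 2.30, 2.39 and 2.40 in WT cerebellum and 2.64, 2.44 and 2.33 in CyrKO cerebellum. It was 1.89, 1.80 and 1.78 in Cdr1as671 and 2.15, 1.93 and 1.83 in the double mutant. Every library with the Cdr1as deletion thus lay below every cerebellum library without it. The log2 ratio was lower than in WT by a mean of −0.37 in Cdr1as671 and −0.26 in the double mutant, each with an exact two-sided permutation p of 0.1, the smallest that 3 against 3 allows (adjusted p = 0.3 over 24 ratio tests). Both comparisons use the same WT libraries. The background depends on which guide is taken as the reference. Of 438 other miRNAs of at least 10 CPM, the ratio to miR-183-5p was lower than in WT without overlap for 36.1% in Cdr1as671 and 63.9% in the double mutant. With miR-182-5p as the reference, the same result reads as a higher ratio of miR-183-5p. The ratio to miR-182-5p was higher than in WT without overlap for 11.2% in Cdr1as671 and 0.685% in the double mutant. It was lower without overlap for 4.11% and 12.8%.

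**Figure D5:**
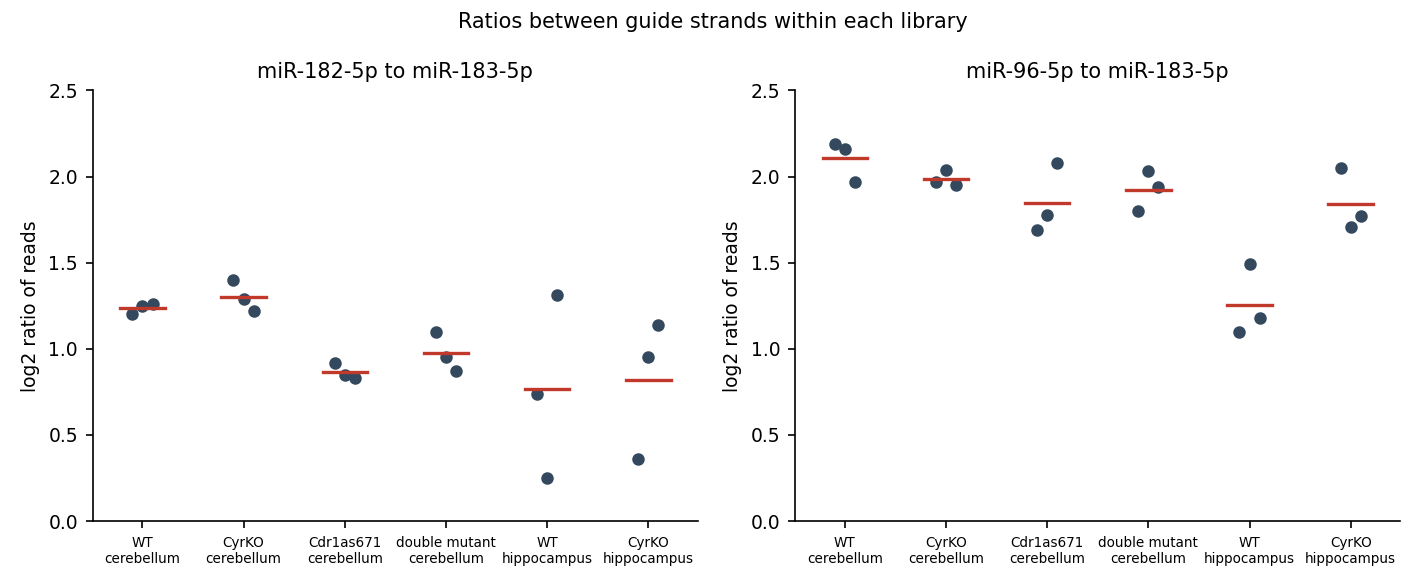
Log2 ratio of reads of miR-182-5p to miR-183-5p (left) and of miR-96-5p to miR-183-5p (right) in each library, by group; points are libraries and bars group means. On the left, the Cdr1as671 and double-mutant libraries lie below the WT and CyrKO cerebellum libraries, with group means of 0.87 and 0.98 against 1.24 and 1.30.

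The other ratios in cerebellum overlapped with WT in each mutant, apart from that of miR-183-5p to miR-183-3p in Cdr1as671, whose 3p counts were all 0. In WT hippocampus the log2 ratio of miR-96-5p to miR-183-5p was 1.26, against 2.11 in WT cerebellum, and in CyrKO hippocampus it was 1.84, against 1.99 in CyrKO cerebellum. The WT tissues did not overlap in this ratio, nor did WT and CyrKO hippocampus (each at the smallest exact permutation p of 0.1, two-sided, adjusted p = 0.3), and the CyrKO tissues did overlap. Of the 438 other miRNAs, 98.6% had a ratio to miR-183-5p that was higher without overlap in WT hippocampus than in WT cerebellum, and 0.913% a lower one. Because miR-183-5p itself fell, only miRNAs that fell further can have a lower ratio. These shares therefore follow from the reference and do not show how unusual the ratio is. In CyrKO against WT hippocampus, 82% had a ratio to miR-183-5p that was higher without overlap. The read numbers of 7 to 10 for miR-183-5p in hippocampus limit these ratios.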

How the data were processed

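Small RNAs of 18 to 32 nt were sequenced from 5 ug of total RNA, isolated with Trizol from frozen tissue, per the labels' protocols. Per the submitters' processing notes, cutadapt (no version) and DESeq2 1.10 were used. How reads were assigned to miRNAs, and with which annotation and build, is not given in the sources used here. There are 4 deposited tables, 1 per mutant group and tissue, each with the WT libraries beside it. Their counts are raw reads per mature miRNA, judged from whole numbers whose totals differ between libraries; the WT cerebellum counts recur in 3 tables and were used once. The deposited signal columns are counts divided by a size factor, per the file headers, and the score is the authors' test statistic; neither was used. The authors' log2 fold changes, standard errors and p-values, per the file headers, were used as an alternative.

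Counts were tested in R 4.3.3 with edgeR 4.0.16 (TMM, filterByExpr at its settings of 10 reads per library and 15 in all, robust quasi-likelihood F-test, Benjamini-Hochberg over all tested miRNAs, threshold 0.05). Comparisons with WT used the 6 libraries concerned, contrasts among cerebellum mutants the 12 cerebellum libraries, and tissue contrasts the 12 WT and CyrKO libraries. The SE is the log2 change over the square root of F. Ratios used counts plus 0.5 and an exact permutation test; correlations used 100000 permutations. CPM is the count over the library's miRNA total. The procedure was also run on simulated counts, whose outcome is not given here and is no support for the calls above. Alternatives included DESeq2 1.42.0, other scalings and filters, a replicate block and leaving out each library. Whether the replicate numbers in the sample titles pair libraries is not known. In 2 comparisons all same-numbered libraries deviated together over 441 miRNAs: double mutant against WT (r = 0.659, 0.463 and 0.511) and CyrKO against WT in cerebellum (0.534, 0.367 and 0.127). Some differently numbered libraries did so too. WT cerebellum library 2 gave r = 0.423 with double-mutant library 3 and 0.389 with CyrKO library 3. Named were all members and their other arms in every comparison, the 5 miRNAs most like each guide, and up to 4 members of each list. The members and lists were chosen with earlier results of these data known. The immune list was analysed for 3 of its 5 members. The others, listed as miR-142a-3p and miR-142a-5p, are named miR-142-3p and miR-142-5p in the counts and were not matched. Sequences came from RefSeq (GRCm38.p6) and gene positions from GENCODE vM21, matched by name.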

Additional observations from a re-analysis of the deposited data

How the results depend on the processing

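Of 157 alternative counts of guides past the threshold over 10 comparisons, 6 moved by over 1.5 times; in 8 of the comparisons the reported count is 0. The 6 that moved all concern the double mutant against WT, where 0 guides passed in the reported test. There 2 passed with DESeq2, 2 with the replicate block, 2 without a filter on low counts, 2 in the authors' deposited test and 1 (miR-183-5p) with 18 libraries in one fit, and leaving out single libraries gave 0 to 2, the 2 without WT library 2. Adjusted p ran from 0.000164 to 0.314 for miR-183-5p and from 0.00173 to 0.43 for miR-96-5p over the 15 alternatives. The block moved no other count. Outside double mutant against WT and CyrKO against WT in cerebellum, same-numbered libraries did not all deviate together (r from −0.611 to 0.711). The replicate numbers are not known to pair libraries in any comparison. Small changes turned sign. Leaving out single libraries gave ranges of −0.120 to 0.22 (miR-96-5p) and −0.0188 to 0.342 (miR-183-5p) for CyrKO in cerebellum, −0.103 to 0.167 (miR-96-5p) for CyrKO in hippocampus, −0.182 to 0.0234 (miR-182-5p) and −0.154 to 0.182 (miR-96-5p) for Cdr1as671, and −0.0521 to 0.391 (miR-182-5p) for the double mutant against CyrKO. Without Cdr1as671 libraries 1 and 2, an alternative chosen after seeing the data that leaves library 3 alone in its group, miR-182-5p was at 0.0302. For miR-96-5p, the CyrKO effect in hippocampus minus that in cerebellum was at −0.0023 with RLE, −0.00099 with DESeq2, −0.0041 with no filter, −0.0605 at 10 CPM or more, −0.0542 with 18 libraries, −0.0381 without the 10 most abundant miRNAs and −0.209 to 0.126 without single libraries. The log2 ratio of miR-183-5p to miR-183-3p for CyrKO in cerebellum was 0.0478 with a pseudocount of 1 and −0.530 to 0.601 without single libraries; that of miR-182-5p to miR-183-5p for CyrKO in hippocampus ran from −0.205 to 0.323, and that of miR-96-5p to miR-182-5p from −0.0173 to 0.217 for Cdr1as671 and from −0.00487 to 0.200 for the double mutant. The cause was not tested. Where the 3p count is 0, no ratio without a pseudocount could be given. Depth limits the hippocampus values and miR-183-3p.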
